A study of Rattus norvegicus with 10 samples.

Results

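Respiratory complex I was described through the 42 genes whose symbol starts with Nduf, out of 14218 genes with a probe set of a single gene symbol, in rat brain after 1 week of calorie restriction (CR, a reduced food supply). They were found on 46 probe sets (sets of short probes against 1 transcript), and the brightest probe set stood for a gene with several. By their known roles, 6 of the 42 genes encode core subunits, 28 accessory subunits and 6 assembly factors, and the other 2 are *Ndufa4* and *Ndufa4l2*. *Ndufs5*, *Ndufa10*, *Ndufaf2* and *Ndufaf6* had no probe set of a single symbol and were not analysed here.

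The study asked how mild and moderate CR changes gene expression. Male Wistar rats, an outbred strain, entered the groups at 6 weeks of age, and the 5 groups used here were a control given its full recorded intake and groups restricted by 5, 10, 20 or 30% of it, each for 1 week. All of them, the control included, were fasted for 16 h before the brain was taken, which the labels call brain and the methods the hypothalamus area. RNA of 5 rats was pooled for each group and hybridised to 1 Affymetrix array, so no group has a second array, and the number of arrays limits the precision of every value. The hypothalamic peptides were bright on the control array, with *Pmch* (melanin-concentrating hormone) at a signal of 7157, *Oxt* (oxytocin) at 3848 and *Hcrt* (orexin) at 1808, whereas *Pomc* was at 2.6 and *Sim1* at 23.7.

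Complex I, NADH:ubiquinone oxidoreductase, is the largest enzyme of the mitochondrial respiratory chain. It takes electrons from NADH, passes them along iron-sulfur clusters to ubiquinone and pumps protons across the inner membrane. The core subunits carry out this catalysis and have relatives in bacteria, some of them encoded in mitochondrial DNA, while the accessory subunits surround and stabilise them and the assembly factors help to build the enzyme without remaining in it. In neurons, which depend on oxidative phosphorylation, loss of complex I function is a known cause of inherited encephalopathy.

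Promoter sequence was available for 40 of the 42 genes in RefSeq (rat build GRCr8, 250 bases before to 50 bases after the annotated start), with none for *Ndufa8* and *Ndufb9*. The letters AAGATGG, the core of the site bound by the transcription factor YY1, were searched on both strands of that window. They were found in 10 of the 40 genes (25.0%) and in 7.01% of all 33469 windows. In all 10 genes the match lay on the strand of the gene, with its first base from position -1 to position 26 counted from the start base as 0. A match on that strand between -5 and 30 was present in 1.62% of all windows. This range was not planned and spans the members' own positions, so all 10 genes lie in it by construction. The windows of 4 called genes are shown, 3 that rose and *Ndufa9*, which fell, because they share these letters at this position, each 5′ to 3′ on the strand of the gene with the searched letters in capitals.
Ndufb8 (chr1:253362899-253362925, minus strand): ggagaaggtgAAGATGGcggcgtcccg
Ndufs4 (chr2:47794894-47794920, minus strand): tgcccacaggAAGATGGcggcggtctc
Ndufaf8 (chr10:105879900-105879926, plus strand): ggcagggcccAAGATGGcggcgcccac
Ndufa9 (chr4:161374144-161374170, minus strand): attgtgggagAAGATGGcggccgccgt

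The core CGGAAGT, read by ETS factors such as GABP (a regulator of mitochondrial genes), was present in 8 of the 40 windows (20.0%) against 6.32% of all windows. It is shown for the 3 genes with it that fell in CR, where it lay on the opposite strand and so reads ACTTCCG.
Ndufa9 (chr4:161374247-161374273, minus strand): gggccccgccACTTCCGttctcagttg
Ndufs1 (chr9:72073789-72073815, minus strand): ggcctcggctACTTCCGgcggaactgc
Ndufaf7 (chr6:21872031-21872057, minus strand): cccttagctcACTTCCGctttccggtg
Of the other motifs searched on both strands, the NRF1 core is almost its own reverse complement, so that a single site can match on either strand. The NRF1 core GCATGCG was in 12.5% of the members' windows against 3.33% of all, the SP box GGGCGG in 47.5% against 33.1%, the ERR core AAGGTCA in 7.5% against 4.61% and the CCAAT box CCAAT in 32.5% against 37.5%.

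The signals are MAS5 intensities on a linear scale, and differences are given as log2 of a CR array over the control array. Across probe sets the control array stood apart, with correlations of its log2 signals to the CR arrays of 0.852 to 0.874, against 0.912 to 0.922 between any pair of CR arrays. It also had more signals under 10, at 24.0% compared with 11.7 to 14.4%. The control array had the higher signal in 24 of 27 probe sets for polyA spike-ins, foreign transcripts labelled together with the sample, with a median log2 difference of CR minus control of -1.16. For the hybridization spike-ins, which enter later, the same held in 6 of 18 probe sets and the median was 0.16. The log2 ratio of 3′ to 5′ signal, a measure of RNA and labelling quality, was 0.19 on the control array and 0.40 to 0.79 on the CR arrays for GAPDH. It was 1.90 against 2.19 to 2.80 for beta-actin and 2.44 against 1.23 to 3.09 for hexokinase. Every comparison with control below uses this single control array, and the part of these differences in the results was not tested. Since tissue RNA was measured, fewer cells of a type and less RNA per cell cannot be told apart.

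Most accessory subunits of complex I rose in CR relative to control on the deposited scale. No core subunit passed the test in that direction, but these are only 6 genes, and 14.5% of all probe sets did. Of the 41 genes that passed the filter on dim probe sets, 20 rose and 4 fell, and 17 did not pass the test (limma over all probe sets, 4 CR arrays against 1 control array, Benjamini-Hochberg adjusted p under 0.05). Among all 15521 probe sets tested, 14.5% were called higher and 11.0% lower. The median log2 difference was 0.42 over the 41 genes and 0.03 over all probe sets. By role, 18 of 28 accessory subunits rose and 1 fell, with a median of 0.52. None of the 6 core subunits rose and 2 fell, with a median of -0.09. Of 5 assembly factors tested, 1 rose and 1 fell, with a median of 0.39. All 4 CR arrays lay above the control array in 30 of the 41 genes and below it in 4, against 37.1% and 33.1% of all probe sets. The test treats the lone control array as varying like the CR arrays, and the 4 CR levels are not replicates of a dose. With each array centred on its median, which moved the median of all probe sets from 0.03 to -0.41, 4 members were called higher and 10 lower, while the members' median relative to that of all probe sets was 0.39 under both, as centring shifts every gene of an array alike. With no filter it was 0.091, and 24 of 42 members lay above the median of all. Without an intensity trend in the eBayes step 8 members were called higher and 1 lower, and *Ndufs1*, *Ndufv1* and *Ndufa9* were no longer called.

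**Figure D1:**
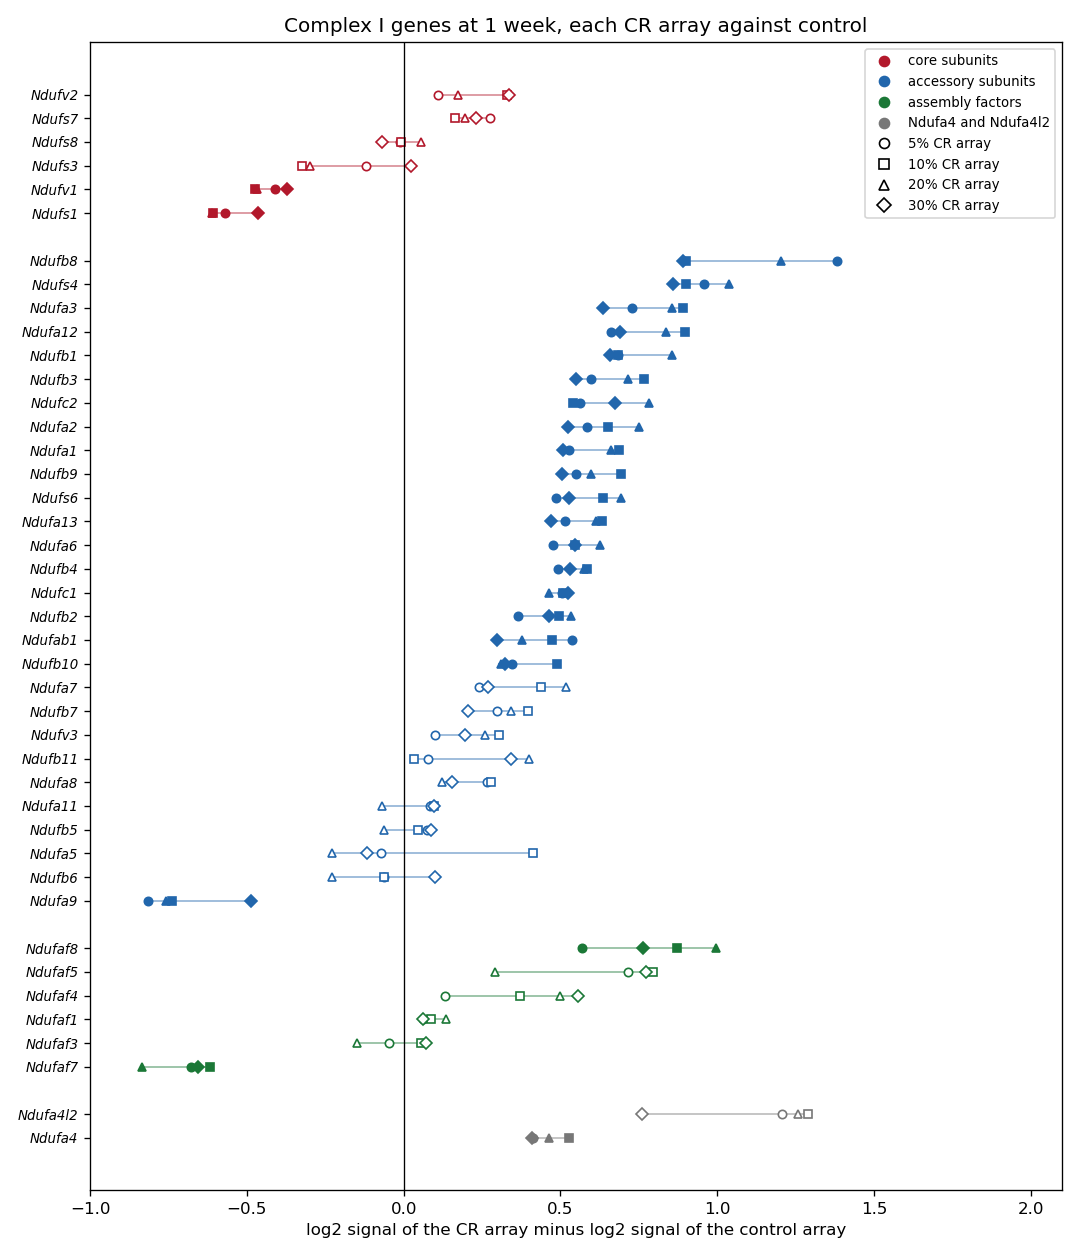
Log2 signal of each CR array minus that of the control array (x axis) for the 42 complex I genes (y axis), coloured by role, with 1 symbol for each CR array and a line over their range. Filled symbols mark genes called higher or lower. Most accessory subunits lie to the right of 0, while *Ndufs1*, *Ndufv1*, *Ndufa9* and *Ndufaf7* lie to the left on every array.

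The core subunits that fell belong to the tip of the matrix arm, where NADH is oxidised. *Ndufs1*, the largest subunit, which carries iron-sulfur clusters, had a signal of 1088 in the control and of 734, 714, 712 and 789 at 5, 10, 20 and 30% CR. Its log2 difference was -0.56 ± 0.07 (SD over 4 CR arrays), with an adjusted p of 0.0101 by limma. *Ndufv1*, which holds the flavin that accepts electrons from NADH, was at 1114 in the control and at 837, 802, 805 and 860.0 in the CR arrays. It differed by -0.43 ± 0.05 (adjusted p = 0.0251 by limma). In both genes every CR array lay below the control array and the 4 CR arrays lay close together, with the 30% array highest. Without the 5% array, *Ndufv1* missed the threshold at a difference of -0.44 (adjusted p = 0.0525 by limma), and the lower core subunits were then 1 of 6.

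The 4 remaining core subunits did not pass the test. *Ndufv2*, the partner of *Ndufv1* in the same tip, was at 2296 in the control and at 2478, 2887, 2591 and 2895 in the CR arrays, a difference of 0.24 ± 0.11 (adjusted p = 0.169 by limma). *Ndufs7*, which holds the last iron-sulfur cluster before ubiquinone, was at 1563 in the control and at 1890, 1751, 1790 and 1835 (0.22 ± 0.05, adjusted p = 0.159 by limma). For both genes all 4 CR arrays were above the control array. *Ndufs3*, with which assembly of the ubiquinone-binding part begins, was at 1223 in the control and at 1124, 976, 994 and 1243 in the CR arrays. *Ndufs8*, another iron-sulfur subunit, was at 819 in the control and at 813, 814, 851 and 781. In these last genes the control value lay within the range of the CR arrays, with mean differences of -0.18 and -0.01.

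Among accessory subunits the largest increases were those of *Ndufb8* and *Ndufs4*, which were also the dimmest accessory subunits on the control array. *Ndufb8*, of the distal membrane arm and often used as a protein marker of assembled complex I, was at 335 in the control and at 872, 625, 770 and 620.1 in the CR arrays. It rose by 1.09 ± 0.24 on the log2 scale, or 2.13-fold (adjusted p = 0.0035 by limma), with the 5% array highest. *Ndufs4*, a subunit of the matrix arm whose loss gives a Leigh-like encephalopathy in mice, was at 200.1 in the control and at 389, 374, 411 and 363. It rose by 0.94 ± 0.08, or 1.92-fold (adjusted p = 0.0028 by limma), and its 4 CR arrays lay closer together than those of *Ndufb8*.

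Next came bright genes that rose by similar amounts. *Ndufa3*, a small membrane subunit, was at 2679 in the control and at 4444, 4965, 4853 and 4160.4 in the CR arrays (0.78 ± 0.12). *Ndufa12*, of the matrix arm, was at 2670.0 in the control and at 4225, 4971, 4767 and 4310.4 (0.77 ± 0.11). *Ndufb1*, of the membrane arm, was at 1941 in the control and at 3117, 3120.0, 3510.2 and 3060.2 (0.72 ± 0.09). None of the CR arrays overlapped the control array in these genes, and the adjusted p was 0.0015, 0.0015 and 0.0017 by limma. *Ndufb3* was at 2869 in the control and at 4338, 4877, 4715 and 4199.9 (0.66 ± 0.10). *Ndufc2* was at 3000.0 in the control and at 4434, 4360, 5166 and 4787 (0.64 ± 0.11). *Ndufa2*, a matrix arm subunit, was at 1706 in the control and at 2560.5, 2681, 2871 and 2456 (0.63 ± 0.10). For *Ndufb3* and *Ndufc2*, both membrane arm subunits, and for *Ndufa2* the adjusted p was 0.0026, 0.0035 and 0.0037 by limma, and again no CR array reached down to the control.

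The 10 other accessory subunits that rose did so by 0.37 to 0.60. They were *Ndufa1*, *Ndufb9*, *Ndufs6*, *Ndufa13*, *Ndufa6*, *Ndufb4*, *Ndufc1*, *Ndufb2*, *Ndufab1* and *Ndufb10*. *Ndufa13* is also known as GRIM-19 from its part in cell death, and *Ndufab1* is the mitochondrial acyl carrier protein, which serves fatty acid and iron-sulfur cluster synthesis as well. *Ndufb10* had the smallest increase, with 1865 in the control and 2369, 2617, 2312 and 2335 in the CR arrays (0.37 ± 0.08, adjusted p = 0.0344 by limma). *Ndufab1* was at 2537 in the control and at 3678, 3521, 3296 and 3118 (0.42 ± 0.10, adjusted p = 0.0229 by limma). Without the 5% array these last genes missed the threshold, with an adjusted p by limma of 0.0673 and 0.0529, and without the 10% array *Ndufb10* did so at 0.0629.

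*Ndufa9* was the only accessory subunit called lower. It sits where the matrix arm meets the membrane arm, is related to short-chain dehydrogenases and binds a nicotinamide nucleotide. The control signal of 1222 compared with 694, 733, 722 and 872 in the CR arrays, a difference of -0.70 ± 0.15 (adjusted p = 0.0078 by limma). Every CR array was below the control array, with the 30% array nearest to it. A second, dim probe set of the gene was at 47.7 in the control and at 35.7 to 54.4 in CR and was not tested.

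Of the 9 accessory subunits that did not pass the test, *Ndufa7*, *Ndufb7*, *Ndufv3*, *Ndufb11* and *Ndufa8* had all 4 CR arrays above the control array, with mean differences of 0.21 to 0.37. *Ndufa11*, *Ndufb5*, *Ndufa5* and *Ndufb6* had the control value inside the CR range, with mean differences of -0.06 to 0.05. *Ndufa5*, of the ubiquinone-binding part, had the largest SD over the CR arrays among these (0.28), with signals of 511 to 797 around a control of 599. *Ndufa7* and *Ndufv3* each had a dimmer second probe set that went the other way, with a difference of -0.55 in *Ndufa7* (adjusted p = 0.164 by limma) and of -1.43 in *Ndufv3*, which was below the filter.

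Placed by the assembly modules of the enzyme, with *Ndufa9* in none, the members of all membrane modules had positive medians and the ubiquinone module did not. In the N module, which oxidises NADH, 5 of 10 genes rose and 2 fell, with a median of 0.46. Split by role, the 7 accessory subunits of the N module had a median of 0.59 and 5 of them rose, while the called core subunits of the same module both fell. In the Q module, which binds ubiquinone, 0 of 4 genes were called and the median was -0.0048. Among the membrane modules 3 of 4 genes rose in ND1 (median 0.58), 2 of 3 in ND2 (0.50), 3 of 6 in ND4 (0.29) and 5 of 6 in ND5 (0.53). Of the Q module genes measured, 3 of 4 are core subunits, so module and role cannot be told apart there. Among all probe sets 14.5% were called higher and 11.0% lower. The modules also differed in brightness. The mean log2 signal had a median of 9.89 in Q, 11.14 in N and 10.63 (ND2) to 11.87 (ND1) in the membrane modules. The part of brightness in the module counts was not tested.

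**Figure D2:**
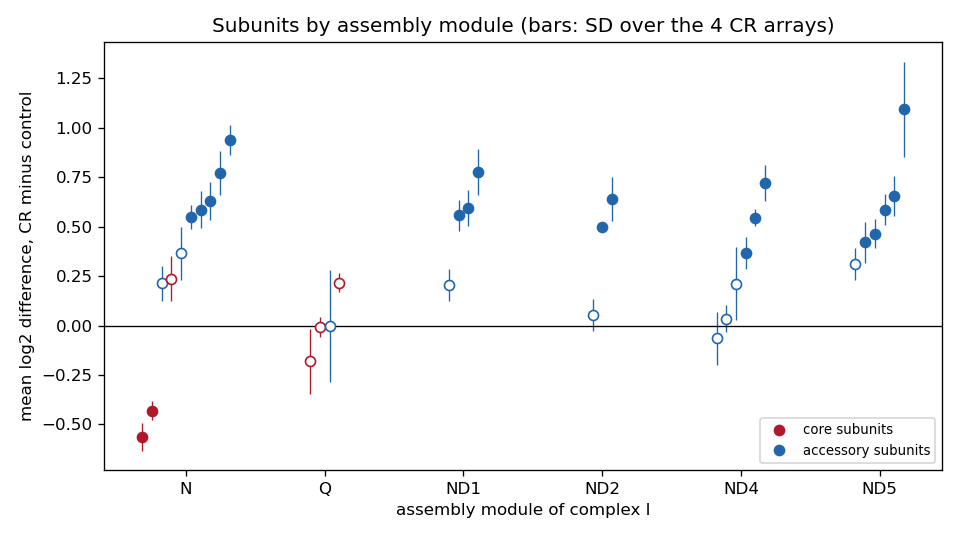
Mean log2 difference of CR from control (y axis) for the subunits placed in each assembly module (x axis), core subunits in red and accessory subunits in blue. Bars are the SD over the 4 CR arrays and filled points are called genes. In the N module the 2 called core subunits lie below 0 and the accessory subunits above it, and the Q module has no called gene.

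The difference between the accessory and the core median was present on every CR array. It was 0.56 at 5%, 0.69 at 10%, 0.68 at 20% and 0.51 at 30% CR on the log2 scale. The accessory median alone stayed between 0.49 and 0.55. The core median stayed between -0.17 and -0.02. These 4 values share the control array, and no test was made of the difference between groups of members, which were chosen with results of these data known.

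The groups also differed in brightness, and among the brightest probe sets of the array the calls were mostly higher in CR. The mean log2 signal had a median of 11.33 in accessory and of 9.94 in core subunits. Among all probe sets with a mean log2 signal of 12 to 13, 57.0% were called higher and 3.64% lower, and 7 of 7 members in that step rose. From 11 to 12 the shares were 31.5% and 14.3%, and 9 of 14 members rose. Below a mean log2 signal of 11 the medians of all probe sets were -0.06 (8 to 9), -0.09 (9 to 10) and -0.06 (10 to 11), with no rise over these steps. From 9 to 10 the shares were 15.4% and 22.1%, and 2 of 9 members rose and 3 fell. Within that last step the 3 core subunits had a median of -0.43 and the 4 accessory subunits a median of 0.11. From 10 to 11 the medians were 0.02 for 2 core and 0.18 for 4 accessory subunits. The steps were set after the values were seen, and the part of brightness in the difference between the roles was not tested further.

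**Figure D3:**
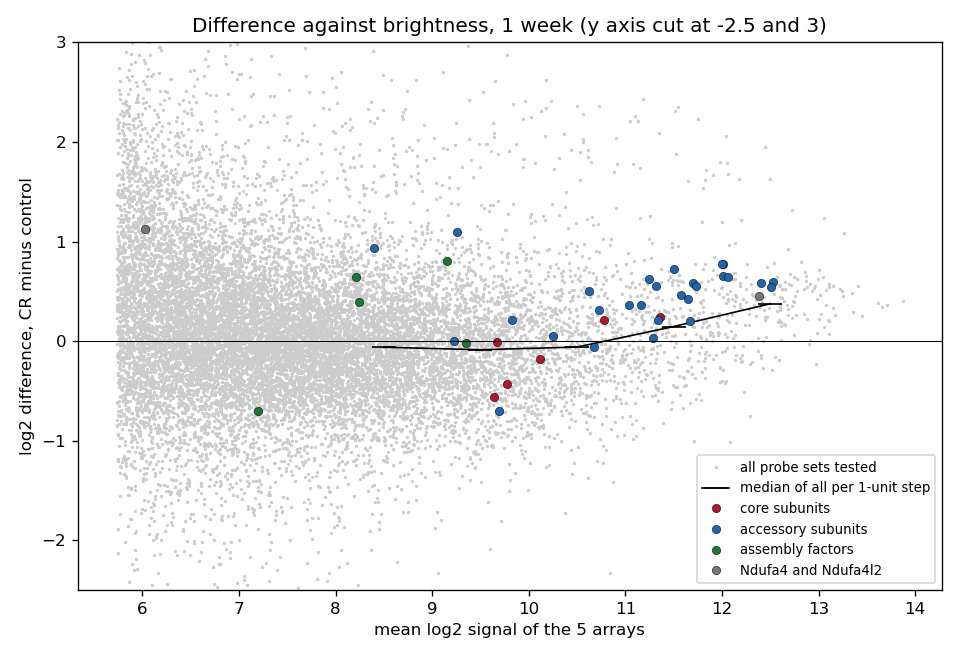
Mean log2 difference of CR from control (y axis, which leaves out the most extreme grey points) against the mean log2 signal of the 5 arrays (x axis) for all 15521 probe sets tested (grey) and the complex I genes that passed the filter (coloured by role). The black line joins the medians of all probe sets in steps of 1 from 8 to 13, which are -0.06 to -0.09 up to 11 and then rise to 0.15 and 0.38, and most accessory subunits lie in the bright steps.

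The assembly factors did not move together. *Ndufaf8*, a small protein that stabilises the assembly factor *Ndufaf5*, was at 365 in the control and at 542, 669, 728 and 619.5 in the CR arrays. It rose by 0.80 ± 0.18, or 1.74-fold (adjusted p = 0.0082 by limma), with all CR arrays above the control. *Ndufaf5*, which hydroxylates the core subunit *Ndufs7*, was at 207 in the control and at 340.2, 359, 254 and 354 in the CR arrays. Its difference of 0.64 ± 0.24 missed the threshold (adjusted p = 0.0537 by limma), and without the lower 20% array it was 0.76 with an adjusted p of 0.0132 by limma.

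*Ndufaf7*, a mitochondrial methyltransferase needed for complex I assembly, was at 216 in the control and at 135, 141, 121 and 137 in the CR arrays. It fell by 0.70 ± 0.09 on the log2 scale, but its adjusted p of 0.0449 by limma lay just under the threshold and was 0.0559 to 0.0711 with each CR array left out in turn. Its second probe set was at 183 in the control and at 99.9, 112, 154 and 162, a difference of -0.51 ± 0.34 that did not pass the test (adjusted p = 0.254 by limma). Both probe sets thus had all CR arrays below the control array.

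*Ndufaf4*, a partner of *Ndufaf3* in building the ubiquinone module, was at 244 in the control and at 267, 315, 344 and 358 in the CR arrays (0.39 ± 0.19, adjusted p = 0.173 by limma). *Ndufaf3* was at 659 in the control and at 639, 685, 595 and 692, with the control inside the CR range. *Ndufaf1*, part of the membrane-arm assembly complex, was at 37.0 in the control and at 38.6, 39.3, 40.6 and 38.6 and was the only member below the filter. Its mean log2 signal of 5.28 was under the limit of 5.74, and the member just inside was *Ndufa4l2* at 6.02.

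*Ndufa4* was first described in complex I and is now assigned to cytochrome c oxidase, complex IV. It was at 4156 in the control and at 5532, 5989, 5729 and 5525 in the CR arrays, and rose by 0.45 ± 0.05 (adjusted p = 0.0073 by limma). *Ndufa4l2*, a related gene known to be induced by hypoxia, was at 34.8 in the control and at 80.4, 85.1, 83.2 and 58.9 in CR. Its difference of 1.13 ± 0.25 did not pass the test (adjusted p = 0.0554 by limma), and it passed the filter only through the CR arrays.

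No member's signal had a slope over the CR levels that passed the test. Over the 4 CR arrays, without the control, 0 of 41 members and 0.0% of all probe sets were called (limma, lowest adjusted p of a member 0.999). At an unadjusted p under 0.05, the count was 1 of 41 members against 4.79% of all probe sets. That member was *Ndufb11*, a membrane arm subunit, at 2432, 2359, 3040.4 and 2920.4 from 5 to 30% CR, or 0.14 per 10 percentage points. The members' slopes ranged from -0.18 to 0.15 with a median SE of 0.06.

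Counted by level at 1.5-fold, the members past it were more numerous at 10 and 20% CR than at 5 and 30%. At 5% CR 9 of 41 members were at least 1.5-fold higher and 2 lower, against 20.7% and 14.7% of all probe sets. At 10% CR the counts were 15 and 3, against 21.9% and 16.6%. At 20% CR they were 15 and 3, against 22.6% and 17.1%. At 30% CR they were 9 and 1, against 19.5% and 13.7%. None of the core subunits was 1.5-fold higher at any level.

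In 18 of 41 members (43.9%) both the 10 and the 20% array were above both the 5 and the 30% array, against 19.0% of all probe sets. Of these, 14 were accessory subunits of 28 and 1 was a core subunit, *Ndufs8*. This order was picked after the values were seen. The 3′ to 5′ log2 ratios of GAPDH and beta-actin were also higher at 10 and 20% than at 5 and 30% CR, and that of hexokinase was not. They were for GAPDH 0.51, 0.74, 0.79 and 0.40 from 5 to 30% CR, and for beta-actin 2.31, 2.80, 2.46 and 2.19. For hexokinase they were 1.23, 1.67, 1.57 and 3.09, highest at 30%. The part of this ratio in the members' order was not tested.

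**Figure D4:**
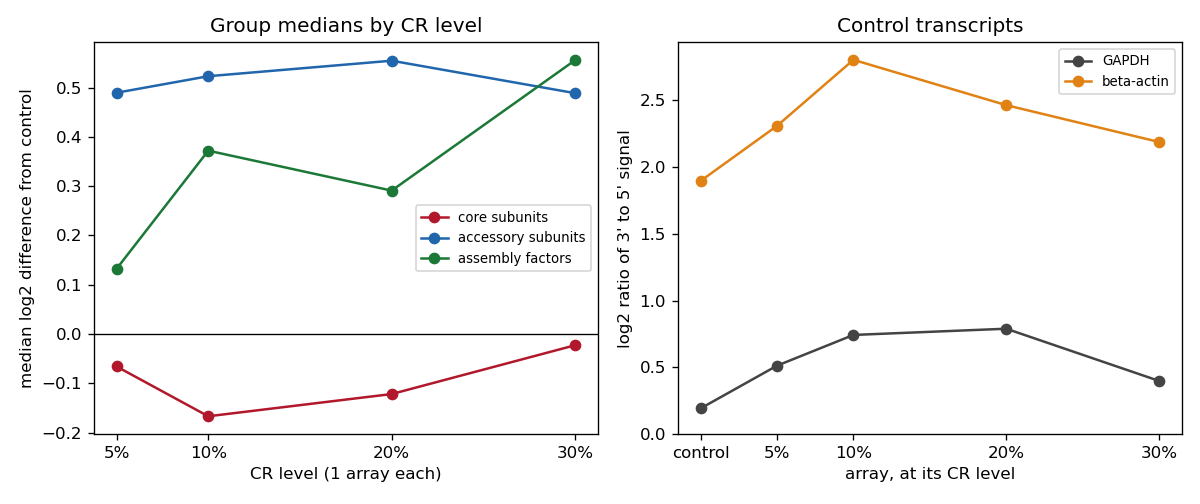
Left, median log2 difference from control (y axis) of the core subunits, accessory subunits and assembly factors on each CR array (x axis, CR level). Right, log2 ratio of 3′ to 5′ signal (y axis) of the GAPDH and beta-actin control transcripts on the control array and each CR array. The accessory median lies between 0.49 and 0.55 and the core median between -0.17 and -0.02, and both control transcripts drawn have higher ratios at 10 and 20% than at 5 and 30% CR. Hexokinase, not drawn, is highest at 30% (3.09).

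Of the other parts of the respiratory chain, complexes III and V had calls in both directions, complex II only lower ones and complex IV only higher ones. These are to be read beside 14.5% of all probe sets called higher and 11.0% lower. Assembly factors of complex I without an Nduf symbol had 0 genes higher and 1 lower of 10 tested, with a median of -0.07. The lower gene was *Acad9*, an acyl-CoA dehydrogenase that works with *Ndufaf1*, at 347 in the control and at 233, 249, 230 and 196 in the CR arrays (-0.62 ± 0.15, adjusted p = 0.0412 by limma). For the subunits of complex I encoded in mitochondrial DNA no probe set of a single symbol was found, and they were not analysed here.

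The counts for complexes II to V stand beside 14.5% of all probe sets called higher and 11.0% lower. Complex II, succinate dehydrogenase, had 3 of 4 genes lower and none higher. Its flavoprotein *Sdha* was at 2078 in the control and at 1414, 1405, 1405 and 1498 in CR (-0.54 ± 0.04), and the membrane anchors *Sdhc* and *Sdhd* fell by 0.73 and by 0.94. In complex III 4 of 8 genes rose and 3 fell. The small subunits *Uqcrh* (0.77) and *Uqcr10* (0.68) rose, the Rieske iron-sulfur protein *Uqcrfs1* fell by 0.62, and the large core protein *Uqcrc2* was at 1934 in the control and at 740, 774, 746 and 839 in CR (-1.32 ± 0.08). Complex IV genes rose in 9 of 9 cases, with a median of 0.58. Their mean log2 signal had a median of 12.21, and from 12 to 13, 57.0% of all probe sets were called higher. The largest differences were those of *Cox5a* (1.21), *Cox7c* (0.75), *Cox7b* (0.65) and *Cox6c* (0.65), all nuclear-encoded accessory subunits. *Cox5a* was dim, with a control signal of 130.5 against 2747 to 5455 for the other complex IV genes. In complex V, the ATP synthase, 6 of 13 genes rose and 3 fell. Its catalytic-head subunit *Atp5f1a* was at 2913 in the control and at 1158, 1141, 990 and 1378 in CR (-1.33 ± 0.20), while the stalk subunit *Atp5pf* (0.68) and the membrane subunits *Atp5me* (0.66) and *Atp5mg* (0.59) rose.

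**Figure D5:**
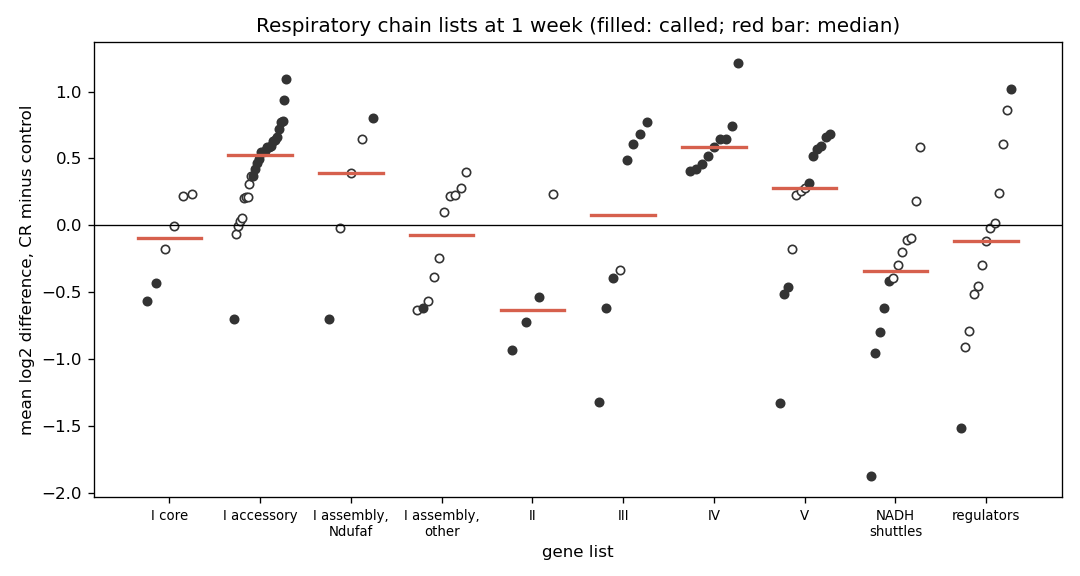
Mean log2 difference of CR from control (y axis) for each gene tested in the lists on the x axis: the 3 roles of complex I, its other assembly factors, complexes II to V, NADH shuttle enzymes and regulators of mitochondrial genes. The NADH shuttle list also holds *Aldoa*. Filled points are called genes and red bars are medians, at 0.52 for accessory and -0.09 for core subunits, -0.63 for complex II and 0.58 for complex IV.

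The list of enzymes that supply or shuttle NADH, the substrate of complex I, had lower signals where its genes were called. It also held *Aldoa*, an aldolase of glycolysis, which does neither. Of 12 genes 0 rose and 5 fell, with a median of -0.34, beside 14.5% higher and 11.0% lower of all probe sets. The 5 included *Aldoa* (-0.42). *Got1*, the cytosolic aspartate aminotransferase of the malate-aspartate shuttle, was at 1480.1 in the control and at 394, 356, 364 and 516 in CR (-1.88 ± 0.25, adjusted p = 0.0004 by limma). *Slc25a11*, the oxoglutarate carrier of that shuttle, fell by 0.95, lactate dehydrogenase *Ldha* by 0.80 and malate dehydrogenase *Mdh2* by 0.61. Among 13 regulators of mitochondrial genes 1 rose, the general factor *Sp1* (1.02), and 1 fell, the mitochondrial transcription factor *Tfb2m* (-1.52). Each count is 7.7% of the list, which is below the shares of all probe sets. *Tfb2m* was at 157 in the control and at 66.4, 49.8, 44.5 and 61.5 in CR, near the filter limit of 53.3. The coactivator *Ppargc1a* (-0.30), *Gabpa* (0.02), *Esrra* (0.24) and *Yy1* (-0.12) did not pass the test, and *Nrf1* was below the filter. Among the regulators not called, larger differences were those of *Tfam* (-0.91), *Ppargc1b* (0.86), *Tfb1m* (-0.79) and *Esrrg* (0.61).

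Set against the promoter windows shown above, the YY1 letters were in 7 of 19 members that rose and have a window, in 1 of 4 that fell and in 2 of 16 that were not called. The ETS letters were in 1 of 19 that rose (*Ndufa13*, with 4 matches), in 3 of 4 that fell and in 4 of 16 not called. These counts describe the letters of the windows and were not tested.

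Markers of other cell types are given with their counts of called genes, to be set beside the 14.5% higher and 11.0% lower of all probe sets. Of the oligodendrocyte markers 3 of 7 tested fell (*Ugt8* -1.36, *Mog* -1.35 and *Mal* -1.26), and the list summed to 21730.3 in the control, against 19969 to 21706 in CR. Neuron markers had 2 higher and 2 lower of 9, with sums of 18576 and 17007 to 18613. Astrocyte markers had 1 higher and 1 lower of 6, with 22699 and 22155 to 23062. Of the pituitary markers 3 were tested, *Tshb* (2.26), *Lhb* (1.61) and *Cga* (1.18), which encode subunits of glycoprotein hormones. *Tshb* and *Lhb* were at 43.3 and 33.6 in the control, under the filter limit of 53.3. They passed the filter only through the CR arrays, so no count is read from this list. It summed to 993 in the control and to 2057 to 2867 in CR. *Prl* and *Gh1* were at 0.6 and 10.7 in the control and at most 29.8 and 50.6 in CR. For choroid plexus 2 markers were tested, and *Kl*, *Kcne2*, *Cldn2* and *Otx2* were below the filter. *Ttr* was at 35.5 in the control and at 110.5 to 203 in CR, and it too passed the filter only through the CR arrays. *Folr1* (0.29) did not pass the test. The choroid plexus list summed to 139 in the control and to 300.0 to 386 in CR. Hypothalamic neuron markers had 3 higher and 1 lower of 9, with sums of 25263 and 28637 to 31134. *Npy*, the hunger peptide, rose by 1.25, *Cartpt* by 0.64 and *Resp18* by 0.45, while *Trh* fell by 1.09. The microglia list (1 of 5 higher) and the endothelial list (1 higher and 1 lower of 6) summed to 1794 and 1545 in the control and to 1773 to 1910.1 and 1360.3 to 1552 in CR. The part of cell composition in the complex I values was not tested.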

How the data were processed

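RNA pools of rat brain were measured on Affymetrix Rat Genome 230 2.0 arrays. The table deposited by the authors holds linear MAS5 signal intensity with 1 column for each array. MAS5, named in the submitters' processing notes, subtracts mismatch signal and scales each array, and the mean signal after trimming 2% at each end was 158.8 on all 5 arrays. Low values are therefore noisy on the log scale. Detection calls were not used here. The platform annotation gives 1 gene symbol for 20832 of the 31099 probe sets, several for 436 and none for 9831. All 46 Nduf probe sets matched the RefSeq gene table through their Entrez identifier, and 0 symbols changed. The rows of the 1 month arrays do not follow the probe set identifiers (correlation with the 1 week arrays 0.036 to 0.052 in 25 pairs), so they were not used.

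For log2, 4 values of 0 were replaced by 0.1 and no pseudocount was added. The filter kept probe sets whose mean log2 signal exceeded the 50th percentile, and 57 control probe sets were left out. limma 3.58.1 (R 4.3.3, lmFit and eBayes with an intensity trend) compared 4 CR arrays with 1 control array, and fitted a slope over the 4 CR arrays, with Benjamini-Hochberg adjustment over all 15521 probe sets and a threshold of 0.05. The fit was tested on simulated data in which the control array varied like the CR arrays. That test cannot cover a control array that stands apart, as here. The p-values reflect only the scatter of single pools of different CR level, with no biological replicate. Groups were taken from the sample labels. Tables and figures were made in Python 3.11.15 (pandas 2.3.3, numpy 2.4.6, matplotlib 3.10.9).

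The members, the other gene lists and the alternatives were chosen with earlier results of these data known, so no test was made on a list. Named were all core subunits, assembly factors, *Ndufa4* and *Ndufa4l2*, the 8 largest called increases and decreases among accessory subunits, and up to 4 called genes of each other pathway list. *Ndufb10*, *Ndufab1*, *Ndufa5*, *Aldoa*, regulators not called and the marker genes given were added as values. Alternatives were median centring, quantile and cyclic loess scaling, a stricter filter (75th percentile) or none, an added pseudocount of 13.7, the probe set choice, robust eBayes or eBayes with no trend, omission of single CR arrays, other forms of the trend and 2-fold counts. A description by protein length was not made. Modules and roles follow common knowledge of the enzyme.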

Additional observations from a re-analysis of the deposited data

How the results depend on the processing

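No paired analysis was possible because each group has 1 array and the groups share no more than 1 replicate number. Filters at none or the 75th percentile, a pseudocount of 13.7, robust eBayes and the use of every probe set left 20 or 21 members higher and 3 or 4 lower.

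Scaling mattered most. With each array centred on its median, the median difference of all probe sets moved from 0.03 to -0.41. The members called were then 4 higher and 10 lower (accessory subunits 4 and 4, core subunits 4 lower), with medians of -0.53 for core, 0.084 for accessory and -0.049 for assembly genes. Centring subtracts 1 value per array, so by construction it leaves the difference between accessory and core medians and the members' median relative to all probe sets (0.39, with 32 of 41 members above) as they were. With no filter that relative median was 0.091, with 24 of 42 members above, since the median of all probe sets was then 0.31. Signs turned for *Ndufb5* (-0.40), *Ndufa11* (-0.39), *Ndufa8* (-0.23), *Ndufb11* (-0.23), *Ndufv3* (-0.22), *Ndufs7* (-0.22), *Ndufv2* (-0.20), *Ndufb7* (-0.13), *Ndufa7* (-0.072), *Ndufb10* (-0.071), *Ndufaf4* (-0.049) and *Ndufab1* (-0.017). At 1.5-fold, centring gave 2, 1, 2 and 0 members higher and 4, 5, 8 and 4 lower from 5 to 30% CR.

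Quantile normalization gave 22 members higher and 2 lower, 1 core subunit lower, medians of 0.011 for core and 0.39 for accessory subunits and a difference of 0.38 between them. Signs turned for *Ndufa5* (0.10), *Ndufs8* (0.091), *Ndufaf3* (0.088), *Ndufb6* (0.0069) and *Ndufb5* (-0.013). Cyclic loess, chosen after seeing the data, gave an accessory median of 0.38 and a difference of 0.46, with *Ndufa5* at 0.054, *Ndufaf3* at 0.032, *Ndufs8* at 0.020 and *Ndufb5* at -0.052. The accessory median exceeded the core median under quantile and loess scaling, by less than on the deposited scale. The cause was not tested.

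Without an intensity trend in eBayes 8 members were higher and 1 lower, with 6 accessory subunits higher, 0 lower and 0 core subunits lower. Leaving out each CR array gave 18 to 23 higher and 2 to 3 lower, 1 to 2 of them core subunits, the lowest counts without the 5% array. *Ndufa5* then ranged from -0.14 to 0.074 (above 0 without the 5, 20 or 30% array), *Ndufaf3* from -0.046 to 0.027 (above 0 without the 20% array) and *Ndufs8* from -0.029 to 0.012 (above 0 without the 30% array). At 2-fold the members higher were 2, 1, 3 and 0 from 5 to 30% CR and those lower 0, 0, 0 and 0. No alternative gave a called slope over CR level.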
